A study of Homo sapiens with 16 samples.

Results

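Retinoids are the active forms of vitamin A, and the genes described here carry out retinoid signaling and metabolism in bladder cancer cells. The set held 10 of the 35993 gene symbols measured and was taken by symbol: DHRS3, PLAAT4 (also called RARRES3), RARA, RARB, RARG, RXRA, CRABP2, RARRES1, CYP26A1 and CYP26B1. The set was chosen by values of these same libraries, since DHRS3, PLAAT4 and RARG were picked for being lower with the drug in all 4 cell lines, so each member's difference between treated and control cells is given as a description with no test. RNA was measured in 16 libraries from 4 human lines of bladder cancer, all labelled wild type (TCCSUP, RT112, J82 and 253J), with 2 control and 2 treated libraries each. Treated cells received CM-1758, an inhibitor of histone deacetylases, at the IC50 of their own line for 48 h, and control cells, which the labels give as a DMSO vehicle control, were kept for the same time; the legends of the study's figures call these controls untreated. TCCSUP was grown in EMEM and the other lines in DMEM GlutaMAX, all with fetal bovine serum, whose retinoid content was not given. Each group is 1 established line, so differences between lines describe those lines and not tumor types.

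Retinol is oxidized in 2 steps, first to retinaldehyde and then to retinoic acid, which enters the nucleus and binds the retinoic acid receptors (RARA, RARB and RARG). These receptors act as pairs with a retinoid X receptor such as RXRA, sit on DNA at retinoic acid response elements, and exchange corepressors that recruit histone deacetylases for coactivators when the ligand binds. Several genes of the system, among them RARB, CYP26A1 and DHRS3, are known targets of retinoic acid and so report on it as well as acting on it. In the bladder, vitamin A is known for keeping the urothelium differentiated, since its lack leads to squamous metaplasia.

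Read totals lay between 27655401 and 32537104 counts in the control libraries and between 22506431 and 31547585 in the treated ones. Of 16 urothelial and epithelial markers, 7 (253J), 8 (J82), 15 (RT112) and 10 (TCCSUP) were above 1 CPM in control cells. CPM is the count scaled to a fixed library size by the TMM method. Among the uroplakin genes, which define terminal urothelium, UPK1A and UPK2 were above 1 CPM in RT112 controls alone. UPK1B averaged 1408 CPM in RT112 and 1.35 CPM in TCCSUP controls, and UPK3A was at 0 in the controls of every line. Of 8 markers of blood, vessel, muscle and nerve cells, 1 (253J), 2 (J82), 2 (RT112) and 3 (TCCSUP) were above 1 CPM in control cells. Their summed level per library ran from 7.16 to 40.6 CPM in 253J, 10.8 to 69.8 in J82, 5.20 to 6.77 in RT112 and 16.2 to 46.1 in TCCSUP. CD68 averaged 7.60 CPM in control and 32.2 CPM in treated 253J cells, and 46.5 and 12.3 CPM in J82. PTPRC averaged 9.58 CPM in control and 1.12 CPM in treated TCCSUP cells, while CD3E and CD79A were at 0 in the TCCSUP controls. The part of these markers in the differences of any line was not tested. Scaling by read totals in place of TMM moved the median log2 difference of all genes by 0.27 (253J), 0.15 (J82), 0.15 (RT112) and 0.31 (TCCSUP), so differences of that size depend on the scaling. In cultures measured in bulk, fewer cells that express a gene and less of its RNA per cell cannot be told apart.

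The promoters of these genes were searched first, because retinoic acid receptors bind a direct repeat of a short half-site and several members are known targets. The RefSeq table of GRCh38.p14 matched 9 of the 10 members, with 18 transcription starts, and PLAAT4 was not matched. The half-sites searched on both strands were the textbook form AGGTCA, the variant AGTTCA, the variant GGTTCA and the variant GGGTCA, and a direct repeat was 2 of them in the same direction with 1, 2 or 5 bases between, so every repeat also counts as half-sites. At least 1 half-site stood in the 250 bases before the start in 33.8% of all 35116 promoters, and a repeat with 5 bases between stood in 26 of them, or 0.074%. Of those 26, 1 belonged to RARB and 1 to CYP26A1, and the members held no repeat with a shorter gap, which 0.0968% (1 base) and 0.0313% (2 bases) of all promoters hold. The 3 windows below are shown because RARB and CYP26A1 carry that repeat, in capitals, while the first start of DHRS3, the member with the largest difference, holds none of the half-sites and its other 2 starts hold 1 each.
RARB, chr3:25428013-25428262, plus strand: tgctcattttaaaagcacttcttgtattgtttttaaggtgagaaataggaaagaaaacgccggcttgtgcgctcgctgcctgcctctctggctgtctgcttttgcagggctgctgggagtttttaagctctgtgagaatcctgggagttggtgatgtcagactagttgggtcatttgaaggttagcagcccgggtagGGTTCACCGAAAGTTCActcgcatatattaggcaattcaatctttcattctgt
CYP26A1, chr10:93073643-93073892, plus strand: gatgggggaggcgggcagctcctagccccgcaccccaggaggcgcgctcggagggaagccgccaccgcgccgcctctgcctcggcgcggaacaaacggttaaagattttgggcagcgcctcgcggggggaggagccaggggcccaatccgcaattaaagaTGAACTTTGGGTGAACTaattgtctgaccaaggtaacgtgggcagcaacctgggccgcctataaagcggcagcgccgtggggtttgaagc
DHRS3, chr1:12618211-12618460, minus strand: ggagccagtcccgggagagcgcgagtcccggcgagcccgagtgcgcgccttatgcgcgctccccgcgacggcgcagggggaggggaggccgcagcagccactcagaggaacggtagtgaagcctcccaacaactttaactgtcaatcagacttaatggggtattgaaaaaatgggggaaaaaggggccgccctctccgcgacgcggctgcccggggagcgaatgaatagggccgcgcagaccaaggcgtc
In RARB the repeat read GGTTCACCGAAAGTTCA and lay 53 to 37 bases before the start. In CYP26A1 it read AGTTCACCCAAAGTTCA on the opposite strand, 90 to 74 bases before the start, with a TATAAA box at 31 to 26 bases, a motif that 10.7% of all promoters hold. The DHRS3 window held 26 CpG dinucleotides against a median of 11 over all promoters, and the RARB window held 7. These matches describe letters only, and no binding was measured here.

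**Figure D1:**
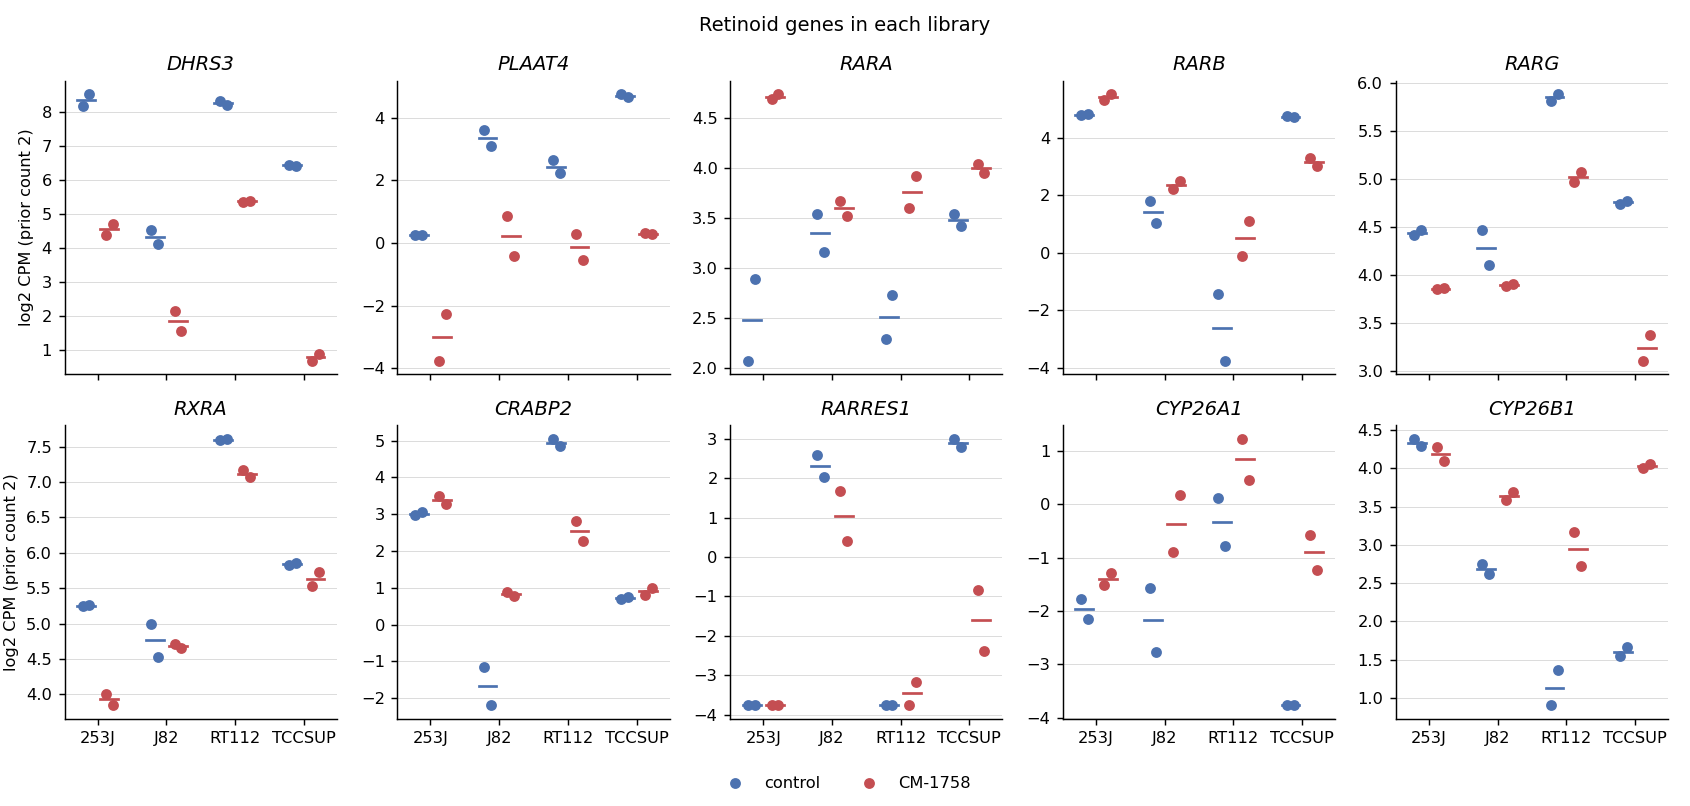
Level of each of the 10 retinoid genes in every library, as log2 CPM with a prior count of 2; each point is 1 library, the bars are means of 2, blue is control and red is CM-1758, and each panel has its own scale. DHRS3, PLAAT4 and RARG were lower in the treated libraries of all 4 lines, while RARB was lower in TCCSUP alone and CRABP2 in RT112 alone.

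DHRS3 reduces all-trans-retinaldehyde back to retinol and so limits the making of retinoic acid. In 253J it measured 289.9 and 367 CPM in the control libraries and 21.0 and 25.9 CPM with CM-1758, a log2 difference of -3.81 ± 0.20 (fitted value ± SE, n = 2 and 2). RT112 started as high, at 322 and 293 CPM, and went to 40.8 and 41.8 CPM, a log2 difference of -2.90 ± 0.19. The largest difference was in TCCSUP, where 87.1 and 86.1 CPM in control cells stood against 1.53 and 1.77 CPM, 52.4-fold lower and -5.71 ± 0.24 on the log2 scale. J82 had the lowest control level, 23.2 and 17.4 CPM, and 4.33 and 2.88 CPM with the drug (log2 difference -2.50 ± 0.21). No treated library reached the level of a control library of its own line, and the spread between treated lines, 25.0-fold from RT112 to TCCSUP, was wider than the 16.2-fold spread between control lines.

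The CYP26 enzymes hydroxylate retinoic acid and so clear it from the cell. CYP26B1 was higher with CM-1758 in 3 lines. In TCCSUP it measured 2.85 and 3.10 CPM in control and 15.98 and 16.6 CPM in treated cells (log2 difference 2.45 ± 0.21), and in RT112 1.80 and 2.51 CPM against 8.96 and 6.56 CPM (1.85 ± 0.21). J82 went from 6.65 and 6.07 CPM to 11.96 and 12.8 CPM, a log2 difference of 0.96 ± 0.20. In 253J, the line with the highest control level, 20.9 and 19.5 CPM stood against 19.4 and 17.01 CPM, and the difference of -0.15 ± 0.19 became 0.12 when scaled by read totals, so its direction was not settled. In treated cells the means ran from 7.76 CPM in RT112 to 18.2 CPM in 253J, against 2.15 to 20.2 CPM in control cells of the same lines.

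CYP26A1, the form most strongly induced by retinoic acid in other tissues, was close to the limit of detection. In RT112 it had 31 and 15 counts in control cells (1.01 and 0.508 CPM) and 58 and 34 with CM-1758 (2.27 and 1.30 CPM), a log2 difference of 1.22 ± 0.58. TCCSUP had 0 counts in both control libraries and 16 and 9 in the treated ones, at least 4.08-fold higher when each control library is set to 3 counts, the limit that a count of 0 allows. J82 went from 7 and 2 counts to 13 and 31, a log2 difference of 2.15 ± 0.72 that was 3.31 without control replicate 1. In 253J, 6 and 4 counts stood against 7 and 10 (0.72 ± 0.78). The treated libraries were above the control libraries in all 4 lines, by a margin of a few counts in 253J. AL358613.3 on the same strand shares 750 of the 2972 exon bases of CYP26A1 in the annotation, an overlap that counting by strand does not resolve, and its part in these counts was not tested.

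RARA, the most widely expressed of the retinoic acid receptors, was highest in treated 253J cells. There it measured 4.13 and 7.35 CPM in control and 25.8 and 26.6 CPM in treated libraries, a log2 difference of 2.19 ± 0.25. RT112 went from 4.81 and 6.57 CPM to 12.05 and 15.1 CPM (1.26 ± 0.24), and TCCSUP from 11.6 and 10.6 CPM to 16.4 and 15.4 CPM (0.52 ± 0.24). In J82 the groups overlapped, with 11.6 and 8.87 CPM in control and 12.6 and 11.4 CPM in treated cells. An antisense gene, RARA-AS1, shares 556 exon bases with RARA in the GENCODE annotation, and the strand setting of the counting was not given. RARA-AS1 itself was at 1.52 and 2.07 CPM in 253J control and 8.12 and 9.62 CPM in treated cells, and at 2.14 and 1.38 CPM against 0.898 and 0.669 CPM in TCCSUP; its part in the RARA counts was not tested.

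RARB, a receptor that is itself induced by retinoic acid, differed in opposite directions between lines. TCCSUP had 27.5 and 26.2 CPM in control and 9.73 and 8.03 CPM in treated cells, a log2 difference of -1.60 ± 0.33. In 253J, which began at the same level with 28.0 and 28.2 CPM, the treated libraries stood higher at 39.9 and 45.9 CPM (0.61 ± 0.31). J82 went from 3.46 and 1.96 CPM to 4.62 and 5.62 CPM, a log2 difference of 0.92 ± 0.37. In RT112 the gene had 9 and 0 counts in control cells and 22 and 55 with CM-1758 (3.27 ± 0.66), a ratio that rests on the control library with 9 counts, without which the control level is 0. The antisense gene RARB-AS1 had 2 counts in 1 library and 0 in the rest.

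RARG, the receptor of squamous and other surface epithelia, was lower with CM-1758 in every line and by less than DHRS3. RT112 had the highest levels, 56.4 and 59.0 CPM in control and 31.2 and 33.7 CPM in treated cells, a log2 difference of -0.83 ± 0.14. TCCSUP went from 26.7 and 27.3 CPM to 8.53 and 10.3 CPM, or -1.52 ± 0.15, which was the largest difference. In 253J the values were 21.3 and 22.0 CPM against 14.4 and 14.5 CPM (-0.58 ± 0.14), and in J82 22.0 and 17.1 CPM against 14.7 and 15.0 CPM (-0.40 ± 0.14). The groups did not overlap in any line, although in J82 the lower control library was close to the treated ones.

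RXRA is the common partner of the retinoic acid receptors and of several other nuclear receptors. In 253J it went from 37.8 and 38.3 CPM to 16.04 and 14.3 CPM, a log2 difference of -1.33 ± 0.15. RT112 had 192 and 195 CPM in control and 143 and 134 CPM in treated cells (-0.48 ± 0.14). TCCSUP had 57.0 and 58.0 CPM against 46.0 and 52.8 CPM, a difference of -0.22 ± 0.14 that turned to 0.09 when scaled by read totals. In J82 the treated libraries, at 26.0 and 25.1 CPM, lay between the control libraries at 31.8 and 23.1 CPM.

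To compare the 3 receptor genes with each other, CPM was divided by the length of the union of each gene's exons, and each receptor's level per kb was taken as a share of the 3 summed. RARG made up 90.1% ± 1.21 (SD, n = 2) of that sum in RT112 control cells and 57.0% ± 1.46 in J82, whereas RARB led in 253J with 58.4% ± 2.49. TCCSUP control cells held 48.8% RARB and 35.4% RARG, but with the longest transcript as the length, an alternative chosen after seeing the data, the shares were 40.5% and 42.5%, so their order in that line was not settled. In treated TCCSUP cells RARB and RARG held 31.6% and 24.2%, and 25.5% and 28.2% with that length. In 253J control cells they held 49.8% and 40.0% with it. That length moved 17 shares by more than their SD and left 7 within it, so the SDs do not cover the choice of length. With CM-1758 the RARA share was 27.8% ± 1.20 against 9.23% ± 3.25 in 253J, 29.8% ± 1.55 against 9.58% ± 1.68 in RT112 and 44.2% ± 0.559 against 15.7% ± 0.643 in TCCSUP. In J82 it was 37.3% ± 2.90 against 32.2% ± 0.609. A share also rises when the other receptors are lower. In TCCSUP RARA went from 2.34 to 3.36 CPM per kb, while RARB went from 7.27 to 2.40 and RARG from 5.27 to 1.83. RARA itself differed most in 253J, from 1.21 to 5.54 CPM per kb. The RARG share was lower with the drug in each line, at 14.1% against 32.4% in 253J, 42.4% against 57.0% in J82, 66.1% against 90.1% in RT112 and 24.2% against 35.4% in TCCSUP.

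**Figure D2:**
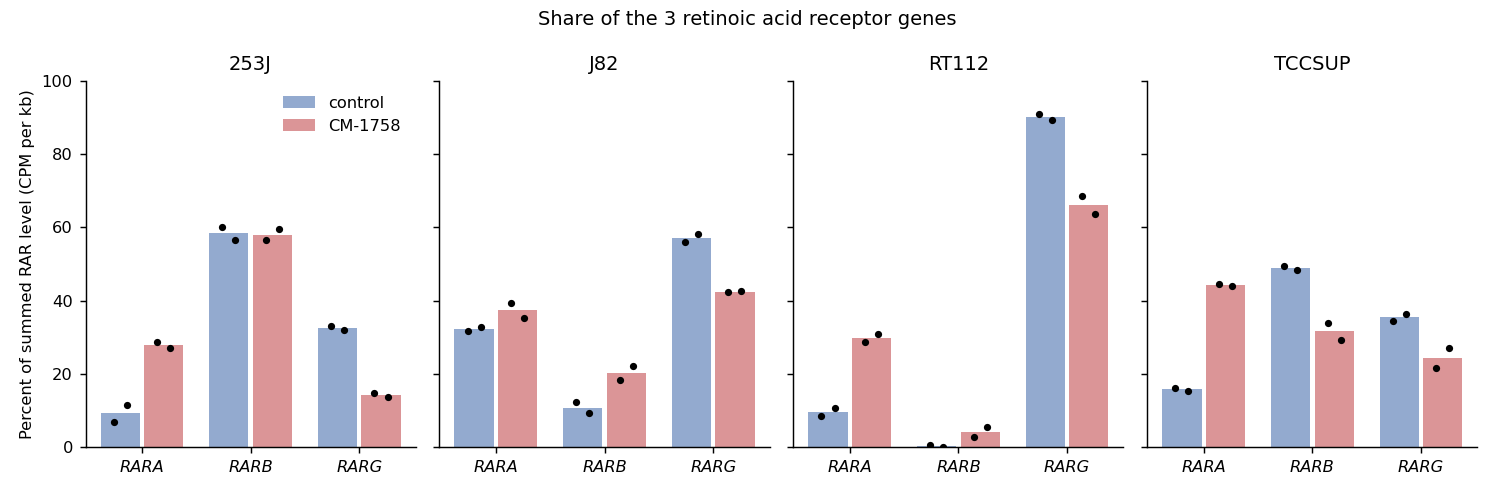
Share of RARA, RARB and RARG in their summed level, in percent of CPM per kb of exon, for each cell line; bars are means of 2 libraries, points are the libraries, blue is control and red is CM-1758. RARG led in RT112 and J82 control cells and RARB in 253J. The RARA share was higher with CM-1758, by the most in TCCSUP (44.2% against 15.7%), where RARB and RARG were both lower with the drug.

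CRABP2 carries retinoic acid to its receptors in the nucleus. RT112 had 33.0 and 28.5 CPM in control cells and 7.005 and 4.73 CPM with CM-1758, a log2 difference of -2.39 ± 0.25. J82 differed the other way, from 10 and 4 counts to 50 and 48 counts, or 2.69 ± 0.38 on the log2 scale and 3.51 without control replicate 1. The values in 253J were 7.79 and 8.20 CPM against 11.2 and 9.69 CPM (0.39 ± 0.24), and in TCCSUP 1.54 and 1.61 CPM against 1.68 and 1.93 CPM (0.20 ± 0.29). The line with the highest control level was thus the one with a lower level after the drug.

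PLAAT4 is a phospholipase and acyltransferase of the PLAAT family, first described as a growth suppressor induced by retinoids. TCCSUP had the highest control level, 26.7 and 25.2 CPM, and 1.16 and 1.14 CPM with the drug, 22.5-fold lower (log2 difference -4.49 ± 0.43). J82 went from 12.04 and 8.40 CPM to 1.75 and 0.677 CPM (-3.07 ± 0.42) and RT112 from 6.15 and 4.64 CPM to 1.13 and 0.610 CPM (-2.63 ± 0.44). In 253J it was near the limit of detection, with 31 and 29 counts in control and 0 and 4 counts in treated cells (-3.86 ± 0.73), and without the treated library of 4 counts no ratio can be given. All treated libraries lay at or below 1.75 CPM whatever the control level.

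RARRES1, a membrane protein named for its response to retinoids, was detected in 2 lines. TCCSUP had 7.95 and 6.93 CPM in control and 13 and 3 counts in treated cells, a log2 difference of -4.59 ± 0.62 that was -5.93 without treated replicate 1. J82 went from 6.003 and 4.04 CPM to 3.11 and 1.25 CPM (-1.20 ± 0.49). In 253J all 4 libraries had 0 counts, and in RT112 1 treated library had 1 count and the rest 0, so no ratio is given for either line. MFSD1 on the opposite strand shares 331 exon bases with RARRES1 in the annotation.

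**Figure D3:**
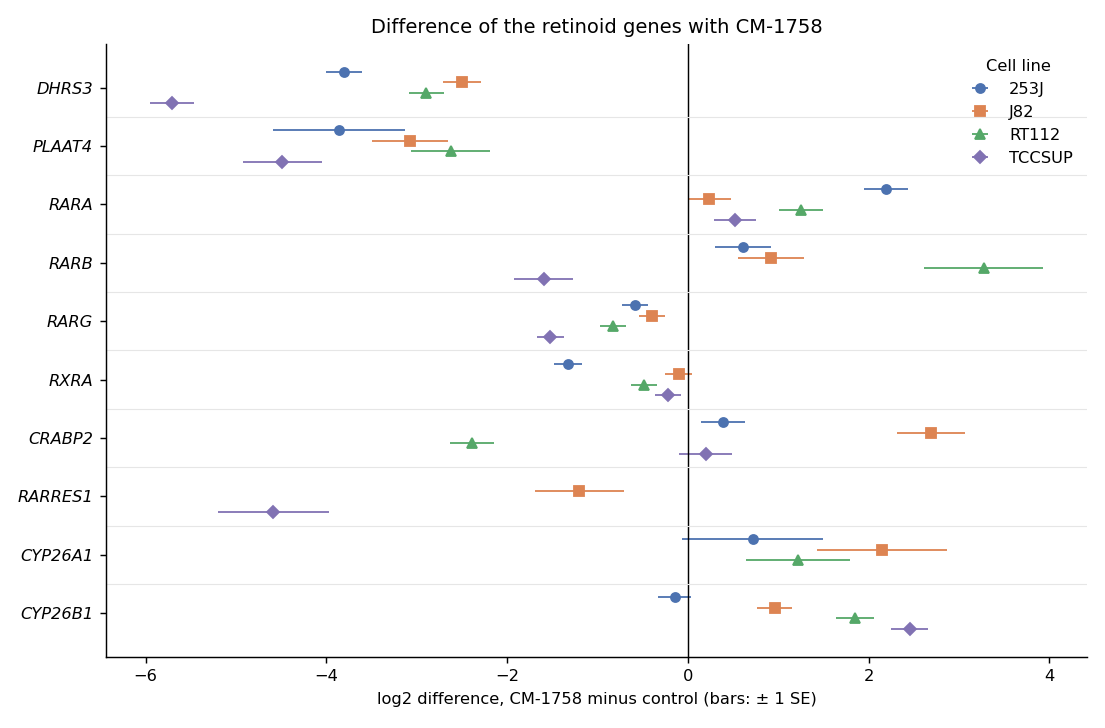
Log2 difference, CM-1758 minus control, of each retinoid gene in each cell line, with bars of 1 SE from the fit over all genes; no symbol is drawn where a group was at or under 3 counts. Values ran from -5.71 for DHRS3 in TCCSUP to 3.27 for RARB in RT112, and those of RXRA in TCCSUP and CYP26B1 in 253J changed sign when scaled by read totals.

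At an adjusted p under 0.05 in the fit over 21297 genes, 4 members were lower and 1 was higher in 253J, where 22.4% of all tested genes were lower and 28.8% higher. In J82 3 were lower and 3 higher (18.5% and 24% of all genes), in RT112 5 and 3 (20.2% and 27.4%), and in TCCSUP 5 and 2 (22.1% and 32%). Since the members were selected on these contrasts, nothing is read from the counts. In 3 members (RARB, CRABP2 and CYP26B1) the treated libraries lay above both controls in 1 line or more and below them in another, which 28% of all tested genes did. All 10 members passed the filter on low counts. The median log2 difference of the members was -0.07 in 253J, 0.07 in J82, 0.37 in RT112 (-0.24 with genes near 0 at their bound) and -0.87 in TCCSUP, beside 0.10, 0.05, 0.12 and 0.20 over all tested genes.

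The rule that picked DHRS3, PLAAT4 and RARG used treated against control levels, not differences between control lines. The same control libraries entered that rule, and all members were chosen with earlier results of these data known. The tests between control lines, with edgeR's quasi-likelihood F test over all genes, are therefore not independent of the choice. Control levels differed between the 4 lines for all 10 members, with adjusted p from 1.28e-10 for CRABP2 to 0.00206 for RARA, where 78.8% of all tested genes differed. Of the 30 pairs of neighbouring lines in the members' orders, 20 differed at an adjusted p under 0.05, where 33.9% of such pairs over all tested genes differed. CRABP2 had a separate level in each line, with RT112 (30.8 CPM) above 253J (7.99 CPM), TCCSUP (1.58 CPM) and J82 (0.263 CPM). RXRA fell into the order RT112, TCCSUP, 253J and J82, with means of 194, 57.5, 38.1 and 27.5 CPM and each step past the limit, the smallest being 253J above J82 (log2 0.47 ± 0.15, edgeR adjusted p = 0.0136).

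PLAAT4 also had 4 separate control levels, from TCCSUP (25.9 CPM) through J82 (10.2 CPM) and RT112 (5.39 CPM) to 253J (1.12 CPM), although the step from J82 to RT112 was close to the limit (edgeR adjusted p = 0.0481). DHRS3 had its 2 highest lines, 253J and RT112, at levels that did not differ beyond their spread (329 ± 54.7 and 308 ± 20.5 CPM, SD; log2 difference 0.10 ± 0.18, edgeR adjusted p = 0.717), and both were above TCCSUP and TCCSUP above J82. The order of the lines was therefore not shared: 253J was highest for DHRS3 and lowest for PLAAT4.

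RARB separated 253J and TCCSUP (28.1 and 26.9 CPM, not separated by the test) from J82 (2.71 CPM) and RT112 (0.147 CPM). RARG set RT112 (57.7 CPM) above TCCSUP, 253J and J82 (27.0, 21.6 and 19.6 CPM). Among these 253J was not separated from either neighbour by the test, but J82 was below TCCSUP (log2 -0.47 ± 0.14, edgeR adjusted p = 0.0141). For RARA, TCCSUP and J82 (11.1 and 10.2 CPM) were above 253J and RT112 (5.74 and 5.69 CPM) with neither pair separated by the test. CYP26B1 was highest in 253J (20.2 CPM), followed by J82 (6.36 CPM), while TCCSUP and RT112 (2.98 and 2.15 CPM) were not separated. CYP26A1 was highest in RT112 (0.761 CPM), with 253J and J82 not separated (0.185 and 0.169 CPM), and RARRES1 was not separated between TCCSUP and J82 (7.44 and 5.02 CPM) and was at 0 in the other lines.

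Over the 16 libraries, the gene whose log2 CPM was most like that of DHRS3 was EI24 (Pearson r = 0.964), followed by TTC31, APOBEC3C, UGDH and PCBD1. For PLAAT4 these were MBNL1 (r = 0.961), ZMYM4, TOR1AIP1, BAZ1A and CENPL, and for RARG MICALL1 (r = 0.956), ZNF362, DDX6, GTF2IP4 and CTDSP1. The libraries share cell line and treatment, so the values are descriptions over 8 groups of 2. When ranks were used, 2 of the 5 genes for DHRS3, 0 for PLAAT4 and 3 for RARG were among the 5 most alike. The members themselves were less alike, with r = 0.80 between DHRS3 and RARG, 0.42 between PLAAT4 and RARG and 0.28 between DHRS3 and PLAAT4.

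A list of 71 other genes of the pathway, of which 56 had enough counts to be tested, was compared between CM-1758 and control with the same edgeR fit. The list was chosen with earlier results of these data known. Its counts and shares beside all genes are therefore descriptions and no test of the pathway. In 253J 18 were lower and 12 higher, or 32.1% and 21.4% of those tested, against 22.4% and 28.8% of all genes. J82 had 12 lower and 23 higher (21.4% and 41.1%, against 18.5% and 24%), RT112 14 and 16 (25% and 28.6%, against 20.2% and 27.4%), and TCCSUP 20 and 17 (35.7% and 30.4%, against 22.1% and 32%). The median log2 fold change of the list was 0.00 in 253J, 0.75 in J82 (0.42 with genes near 0 at their bound), 0.10 in RT112 and 0.02 in TCCSUP, beside the medians of all genes given above. Scaling by read totals gave 15 lower and 17 higher in 253J, 9 and 19 in RT112 and 17 and 21 in TCCSUP, so in 253J and TCCSUP the larger of the 2 counts depends on the scaling. The lower count was 7 in J82 without CM-1758 replicate 3, and in RT112 it was 8 to 10 whichever library was left out (9 without control replicate 2 and 8 without CM-1758 replicate 1).

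Among the 9 receptors and co-regulators, all tested, 3, 3, 3 and 4 fell and 1, 2, 2 and 1 rose in 253J, J82, RT112 and TCCSUP. The shares over all tested genes were 22.4%, 18.5%, 20.2% and 22.1% lower and 28.8%, 24%, 27.4% and 32% higher. NCOA2, a coactivator of nuclear receptors, fell in all 4 lines by 1.14 to 1.35 on the log2 scale, for example from 44.4 ± 1.06 to 17.6 ± 1.60 CPM in TCCSUP (SD, n = 2; edgeR adjusted p = 7.51e-06). NRIP1, a retinoid-induced corepressor, fell by 1.61 ± 0.13 in 253J and by 1.45 ± 0.13 in TCCSUP, with a smaller change in RT112 (-0.32 ± 0.13, adjusted p = 0.0468) that did not pass with any 1 RT112 library left out (adjusted p = 0.114 to 0.173) or with RLE scaling (0.123). PPARD, a receptor that can also bind retinoic acid, rose in J82, RT112 and TCCSUP (log2 0.75, 0.85 and 0.85). The J82 call was lost without control replicate 3 (adjusted p = 0.0897) or CM-1758 replicate 3 (0.0611). RXRB, a second retinoid X receptor, fell in RT112 (-0.72 ± 0.17, adjusted p = 0.00265) and had log2 values of 0.08, -0.27 and -0.20 in 253J, J82 and TCCSUP.

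Of the 23 genes whose enzymes convert carotenoids, retinol and retinaldehyde, some toward retinoic acid and some back toward retinol, 19 were tested: 7, 5, 5 and 9 fell and 5, 5, 3 and 6 rose in 253J, J82, RT112 and TCCSUP. Over all tested genes 22.4%, 18.5%, 20.2% and 22.1% were lower and 28.8%, 24%, 27.4% and 32% higher in these lines. ALDH1A1, which oxidizes retinaldehyde to retinoic acid, was abundant in 253J control cells, at 6732 and 4794 CPM, and fell to 911 and 556.5 CPM (log2 -2.97 ± 0.33, edgeR adjusted p = 5.44e-06). In TCCSUP it fell by a like amount, from 199.8 and 322 CPM to 34.4 and 32.8 CPM (-2.96 ± 0.34), and J82 and RT112 had at most 10 counts in a library. ALDH1A3, a second enzyme for that step, had 59.8 and 91.8 CPM in J82 control cells and fell to 37.3 and 38.1 CPM (-1.01 ± 0.25), and fell by 0.88 ± 0.25 in TCCSUP. It rose in 253J from 3 and 0 counts to 45 and 22 counts, and stood at 1205 and 1348 CPM in RT112 control and 2023 and 1776 CPM in treated cells, a log2 value of 0.57 that did not pass (adjusted p = 0.0683). Without J82 control replicate 3 or TCCSUP CM-1758 replicate 2, the ALDH1A3 call in that line was lost (adjusted p = 0.0540 and 0.0874).

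RDH10, the main retinol dehydrogenase of the embryo and the partner of DHRS3 in a complex, fell in 253J from 669 and 731 CPM to 117 and 121 CPM (log2 -2.56 ± 0.17, edgeR adjusted p = 4.11e-08) and in TCCSUP from 122 and 128 CPM to 31.3 and 35.2 CPM (-1.91 ± 0.17). In J82 it rose by 0.46 ± 0.16 (adjusted p = 0.0329), a call lost without control replicate 1 (0.321) or CM-1758 replicate 1 (0.0912), and in RT112 its log2 value was -0.24. RDH11, which reduces retinaldehyde, fell in all 4 lines, by 1.21 (253J), 0.58 (J82), 0.51 (RT112) and 1.06 (TCCSUP). Its call was lost in J82 without CM-1758 replicate 3 (adjusted p = 0.0693) and in RT112 without control replicate 2 or either CM-1758 replicate (0.0509 to 0.0757). DHRS4, which also reduces retinaldehyde, fell in J82, RT112 and TCCSUP by 1.11, 1.78 and 1.34, and the J82 call was lost without CM-1758 replicate 1 (0.0627).

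RDH12, a retinaldehyde reductase best known from the retina, was higher in all 4 lines and reached 32 and 45 counts in RT112 and 98 and 77 in TCCSUP, against 0 in both RT112 controls (at least 14.9-fold) and 5 and 0 in TCCSUP. In 253J it went from 2 and 0 counts to 8 and 10 and in J82 from 3 and 0 to 15 and 23, and both calls were lost when single libraries were left out (adjusted p up to 0.205 without 253J control replicate 3 and 0.0781 without J82 control replicate 3). SDR16C5, an epidermal retinol dehydrogenase, rose in RT112 from 3.11 and 4.13 CPM to 30.4 and 30.7 CPM (log2 3.07 ± 0.31), in J82 by 1.66 ± 0.33 and in TCCSUP at least 18.03-fold from 0 counts, and had 0 counts in all 4 libraries of 253J. BCO2, which cleaves carotenoids and was named after its values were seen because it passed in all 4 lines, rose by 2.12, 3.16, 2.83 and 1.92 in 253J, J82, RT112 and TCCSUP.

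Retinol is stored as esters, and of 6 genes for this step 4 were tested: 1, 0, 0 and 0 fell and 1, 4, 2 and 2 rose in 253J, J82, RT112 and TCCSUP. Over all tested genes 22.4%, 18.5%, 20.2% and 22.1% were lower and 28.8%, 24%, 27.4% and 32% higher. With 4 genes, nothing is read from these counts. LRAT, which makes the esters, had 0 counts in both TCCSUP controls and 269 and 262 with CM-1758, at least 87.2-fold higher (edgeR adjusted p = 4.45e-07). In J82 it rose from 10 and 5 to 149 and 121 counts (log2 4.05 ± 0.53), in RT112 from 11 and 4 to 151 and 163 (4.58 ± 0.53), and in 253J it had 0 and 2 counts in control and 8 and 2 in treated cells. PNPLA4, a retinyl ester lipase and transacylase, rose in 253J, J82 and TCCSUP by 1.13, 0.90 and 1.43, with the J82 call lost without control replicate 1 (adjusted p = 0.0585), and had a log2 value of -0.04 in RT112.

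Of 10 carriers and uptake genes, 6 were tested: 1 fell, in TCCSUP, and 0, 2, 3 and 3 rose in 253J, J82, RT112 and TCCSUP. The shares over all tested genes were 22.4%, 18.5%, 20.2% and 22.1% lower and 28.8%, 24%, 27.4% and 32% higher. With 6 genes, nothing is read from these counts. CRABP1, the second cellular retinoic acid-binding protein, had 0 counts in all 8 control libraries and rose in TCCSUP to 46 and 24 counts (at least 11.4-fold, edgeR adjusted p = 0.00198). Its change in RT112, to 15 and 8 counts (at least 4.47-fold, adjusted p = 0.0121), did not pass without either control replicate or CM-1758 replicate 1 (0.0545 to 0.0606). RBP5, a cellular retinol-binding protein, rose in J82, RT112 and TCCSUP from at most 12 counts in a control library to between 21 and 35, and its RT112 call was lost without control replicate 2 (0.120) or CM-1758 replicate 1 (0.0630). The breakdown group held 2 further genes, of which CYP2S1 was tested and rose in J82 alone, with a log2 fold change of 1.72.

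Among 17 genes known to respond to retinoic acid, 14 were tested: 7, 4, 6 and 6 fell and 4, 8, 3 and 4 rose in 253J, J82, RT112 and TCCSUP. That is 50%, 28.6%, 42.9% and 42.9% lower, against 22.4%, 18.5%, 20.2% and 22.1% of all tested genes. Higher were 28.6%, 57.1%, 21.4% and 28.6%, against 28.8%, 24%, 27.4% and 32%. The targets thus went both ways, as did all tested genes. TGM2, a transglutaminase that retinoic acid induces, rose in J82 from 4.90 and 2.87 CPM to 44.4 and 41.5 CPM (log2 3.47 ± 0.29, edgeR adjusted p = 4.53e-07) and in RT112 from 2.58 and 4.10 CPM to 58.0 and 58.4 CPM (4.12 ± 0.30). It had log2 values of -0.04 in 253J, where control cells held 572 and 431 CPM, and 0.37 in TCCSUP.

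RAI2 and RAI14 were named for induction by retinoic acid and went opposite ways. RAI14 fell in all 4 lines, by 1.18, 0.96, 1.46 and 1.79 on the log2 scale in 253J, J82, RT112 and TCCSUP. RAI2 was at or near 0 in control cells and rose to 63 and 75 counts in 253J, 30 and 27 in RT112 (at least 11.0-fold) and 20 and 16 in TCCSUP (at least 5.90-fold). In J82 it went from 2 and 0 to 10 and 10 counts, a call lost without control replicate 3 (edgeR adjusted p = 0.0804). LAMB1, a laminin chain induced by retinoic acid in embryonal carcinoma cells, fell by 2.07 in 253J and 1.68 in TCCSUP. It also fell by 0.48 in J82 (lost without control replicate 1, adjusted p = 0.139, or CM-1758 replicate 3, 0.353) and by 0.47 in RT112 (lost without any 1 library, 0.0953 to 0.114), and neither call held with RLE scaling (0.0779 and 0.0659).

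Of 4 relatives of PLAAT4 3 were tested, 0 fell in any line, and 1, 1, 3 and 1 rose in 253J, J82, RT112 and TCCSUP. Of all tested genes 22.4%, 18.5%, 20.2% and 22.1% fell and 28.8%, 24%, 27.4% and 32% rose in the same lines. PLAAT4 was picked for being lower in all 4 lines and its relatives were not, so nothing is read from the contrast between them. PLAAT3, a phospholipase abundant in fat cells, rose from 1.45 and 1.46 to 3.41 and 3.04 CPM in 253J (log2 1.14 ± 0.26, edgeR adjusted p = 0.00201), by 0.98 ± 0.19 in J82 and by 1.29 ± 0.19 in RT112, and had a log2 value of -0.15 ± 0.19 in TCCSUP. PLAAT1 rose from 1 and 3 to 32 and 37 counts in RT112 and from 0 and 4 to 51 and 71 counts in TCCSUP, and had log2 values of 0.20 and 0.38 in 253J and J82. PLAAT2 rose in RT112 (1.78 ± 0.52, adjusted p = 0.0123), a call lost without control replicate 1 (0.0974) or CM-1758 replicate 2 (0.0785), and PLAAT5 had at most 10 counts in a library and was not tested.

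**Figure D4:**
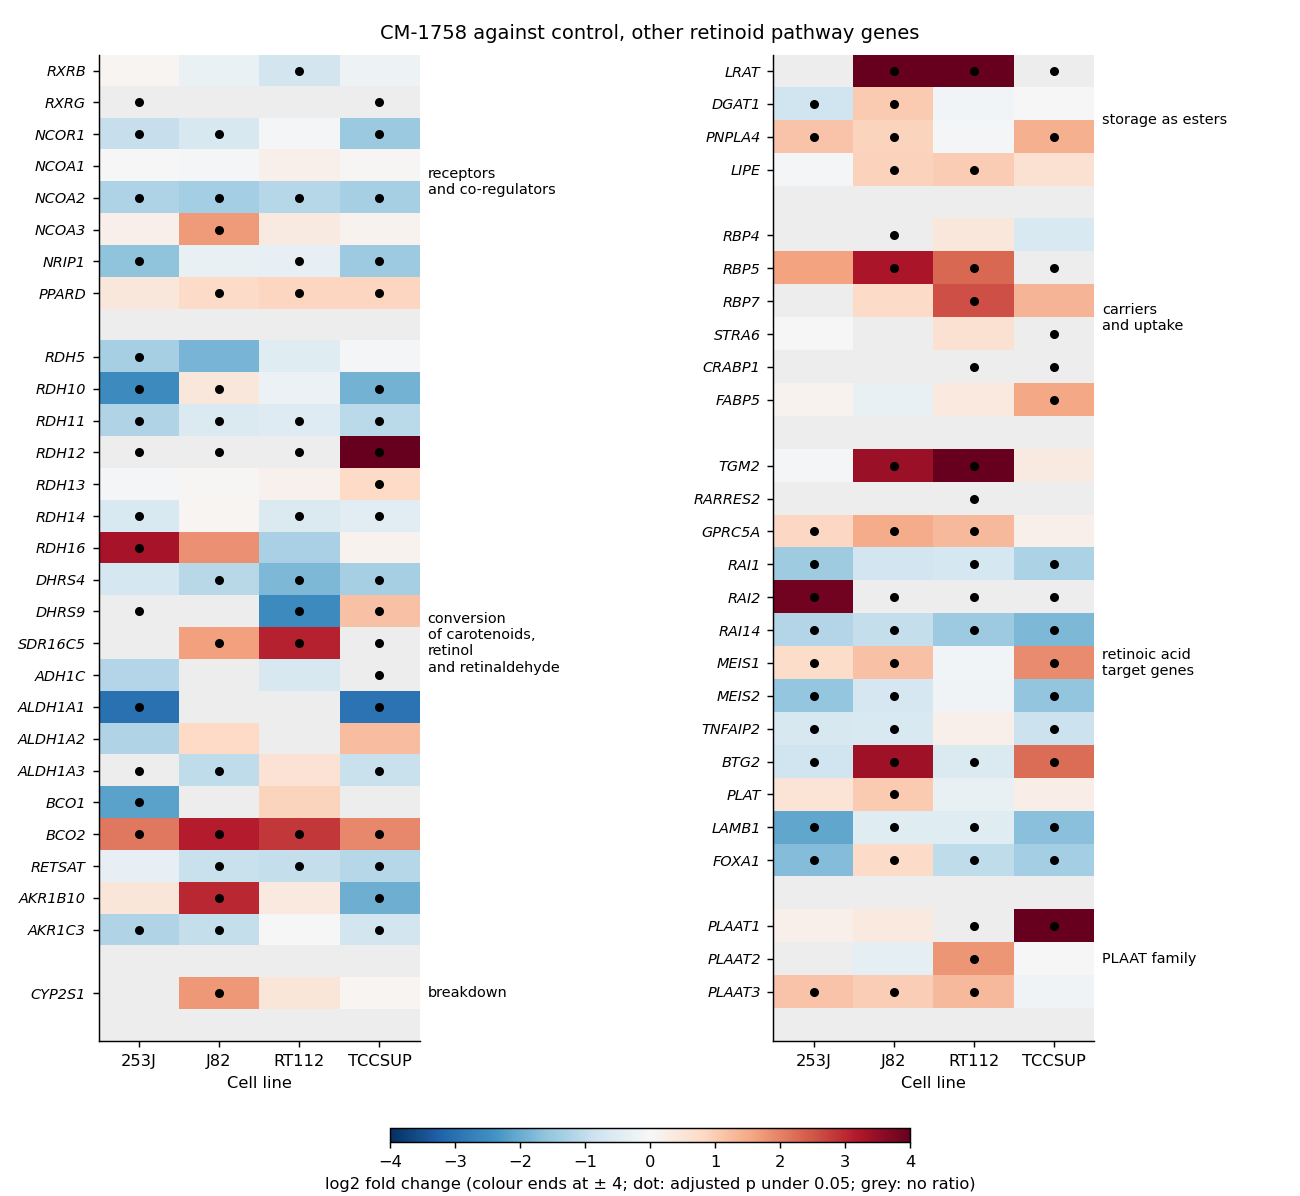
Log2 fold change, CM-1758 against control, of 54 of the 56 tested genes of the pathway list in each cell line, with colour from blue (lower) to red (higher), dots at an adjusted p under 0.05 and grey where a group was at or under 3 counts. BCO2 was higher and NCOA2, RDH11, RAI14 and LAMB1 lower in all 4 lines, and the calls of RDH11 in J82 and RT112 and of LAMB1 in the same lines were lost in some settings.

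Across lines, 4 list genes (NCOA2, RDH11, RAI14 and LAMB1) were lower and 3 (RDH12, BCO2 and RAI2) higher in all 4, and 9 fell in 1 line or more and rose in another. Among those 9 were RXRG, RDH10, DHRS9, ALDH1A3, AKR1B10, DGAT1, BTG2 and FOXA1, listed because their number is small and not by the naming rule. The shares of all tested genes that passed in all 4 lines, or in opposite directions, were not counted. Nothing is therefore read from the numbers of list genes that did so. DHRS9, another retinol dehydrogenase, fell in RT112 from a mean of 169 to 28.7 CPM and rose in TCCSUP from 1.07 to 2.43 CPM. The size of the CM-1758 effect differed between lines for 39 of the 56 tested genes (edgeR interaction F test, adjusted p under 0.05), or 69.6%, where 51.9% of all tested genes did so. NCOA2 was among those for which the interaction did not pass (adjusted p = 0.834), whereas it did for RDH10 (3.06e-07), TGM2 (6.53e-07) and LRAT (0.00612).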

How the data were processed

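The deposited table held raw counts, whole numbers of reads per gene symbol, which the authors made from stranded total RNA libraries depleted of ribosomal RNA. The submitters' processing notes name HISAT2, StringTie and GRCh37 without roles; the counter, its strand setting and the annotation are not given in the sources used here. Replicates were labelled as separate samples and described as independent. Genes were filtered with filterByExpr over 8 groups (21297 kept), scaled by TMM and fitted in 1 quasi-likelihood model with edgeR 4.0.16 in R 4.3.3, with 8 residual degrees of freedom and Benjamini-Hochberg adjustment over all tested genes. CPM and log2 CPM (prior count 2) use TMM sizes, and SE is the log2 fold change over the square root of F. DESeq2 1.42.0, other scalings and filters, a replicate block and leaving out each library were alternatives. The members and lists were chosen with earlier results of these data known. List genes named were up to 2 in each direction per group with the largest mean change among those past the limit in at least 3 lines, and a fixed few; some genes are not reported here. Promoters came from RefSeq (GRCh38.p14) and gene lengths from GENCODE 29, neither being the build of the counts. The fits were tested on simulated data. Floors of 3 counts cover counting error only, whereas SD and SE also hold the spread between libraries.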

Additional observations from a re-analysis of the deposited data

Results flagged for a closer look

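In 3 members every treated library of 1 line lay above its controls and every treated library of another line below them, as in 28% of all tested genes, and the difference between lines was not tested because the members were chosen on these contrasts. RARB had a log2 difference of 3.27 in RT112 and -1.60 in TCCSUP. CRABP2 had 2.69 in J82 and -2.39 in RT112. CYP26B1 had 2.45 in TCCSUP and -0.15 in 253J, the last of which changed sign with the scaling.

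For the following list genes named in the text, the CM-1758 effect differed between the 4 lines in the interaction F test of edgeR. The adjusted p was 3.06e-07 for RDH10, 6.53e-07 for TGM2, 2.22e-05 for NRIP1, 6.81e-05 for LAMB1, 8.09e-05 for PLAAT1 and 9.15e-05 for ALDH1A3. It was 0.00154 for PLAAT3, 0.00181 for SDR16C5, 0.00595 for PNPLA4, 0.00612 for LRAT, 0.0148 for RAI14 and 0.0253 for RDH11. The share of all tested genes that passed the same test is given with the list above.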

How the results depend on the processing

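With 2 libraries a group, differences of low genes were imprecise, and members under about 10 counts are limited by depth. DHRS3, PLAAT4 and RARG stayed lower in all 4 lines in each alternative run in which they had a value. They were picked for being lower in these same libraries, so refits of the same counts are no independent check of their direction. Scaling by read totals turned the log2 difference of CYP26B1 in 253J to 0.12 and of RXRA in TCCSUP to 0.094, and left 9 list genes lower in RT112. Keeping genes with at least 10 counts in every library, so that fewer were tested, gave 14 higher in J82, 8 lower and 8 higher in RT112, 7 higher in TCCSUP, and 5 members with differing control levels, the 5 that passed this filter. With that filter 3209 of all 11984 genes tested were higher in J82, 3170 lower and 3324 higher in RT112, and 3729 higher in TCCSUP. Fitting each line alone gave 7 lower in J82, where 2504 of all 16756 genes tested were lower, against 3933 of 21297 in the main fit. At a log2 fold change beyond 2 and an adjusted p under 0.01, 4 list genes were lower and 7 higher in 253J, 0 and 8 in J82, 1 and 8 in RT112, and 3 and 8 in TCCSUP. The shares of all tested genes at those limits were not counted, so nothing is read from these counts. Of the called values of named list genes, 19 lost their call in these settings, 420 kept it and 0 changed sign. With 1 library of the line left out, 37 lost it and 231 kept it, and the list counts were 7 to 12 lower in J82 and 8 to 10 in RT112.

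Replicate numbers were not used to pair libraries, since no source used here says that they pair. The deviations of same-numbered libraries correlated at 0.05 (253J, where 1 number is shared), 0.22 (J82), 0.04 (RT112) and 0.02 (TCCSUP), which does not exclude pairing. With a replicate block 14 and 22 list genes were lower and higher in J82, 14 and 17 in RT112 and 20 and 16 in TCCSUP. More of all genes were called with the block in each of these lines, for example 4391 against 3933 lower in J82. In 253J the block leaves only the replicate 3 pair to give the difference, so its counts are left out. The interaction test with the block also rests on that 253J difference, so its count is left out too. In a blocked fit of the control libraries 9 members differed between control lines.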
